A study of Mus musculus with 3 samples.

Results

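The genes described here encode the enzymes and regulators of sterol and fatty acid synthesis in mouse C3H10T1/2 cells. They are 34 listed genes, found on the array by gene symbol, current or older (Msmo1 appears as Sc4mol), among 27724 genes and transcripts measured by 41167 probes. The 34 members had 68 probes and fall into a sterol branch of 18 enzymes (35 probes), 6 regulators of the pathway (13 probes) and a fatty acid branch of 10 enzymes (20 probes).

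C3H10T1/2 is an established fibroblast-like line from mouse embryo, used in assays of chemical transformation and able to form adipocytes in culture. There were 3 groups, 1 untreated, 1 exposed to 0.01 uM and 1 exposed to 1 uM hexavalent chromium, Cr(VI), an oxidising metal ion known as a carcinogen. Each group had 3 flasks seeded with 2000 cells, the exposure began 24 h after seeding and lasted 48 h, and the cultures were kept for 15 days before RNA was isolated, so the arrays show cells well after chromium was removed. A single RNA sample per group (500 ng labelled with Cy3) was hybridised to 1 array of a shared slide, and the labels do not say whether it pooled the flasks.

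With 1 array per group no difference has a replicate check and no p-value is given. Levels are log2 signal relative to the 75th percentile of all probes of the same array, so a level of 0.00 is that percentile and 1.00 is a doubling. Levels are compared between arrays for 1 gene, not between genes, since probes differ in brightness per transcript. The technical standard error (SE) of a member's log2 difference, from the scanner software's own error estimate for each spot, had a median of 0.20 for 1 uM against untreated. It was nearly the same for every member, from 0.204 to 0.219, and covers measurement error only. A gene was counted as apart when its arrays differed at least 2-fold, a log2 difference of 1.00, and a second count used 1.5-fold.

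The members share a control circuit. Cells sense their sterol content in the endoplasmic reticulum, where Scap, the escort of the SREBP transcription factors, is held back by the Insig proteins while sterols are plentiful. When sterols fall, Scap carries SREBP to the Golgi apparatus, proteases release its active part, and this part enters the nucleus and turns on synthesis genes through sterol regulatory elements, usually with the help of factors such as NF-Y, which binds CCAAT boxes. SREBP-2, the product of Srebf2, acts mainly on cholesterol genes, and SREBP-1, the product of Srebf1, mainly on fatty acid genes.

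Promoters are shown for the 5 members past 2-fold at 1 uM (Hmgcs1, Mvd, Idi1, Cyp51 and Insig1) and for Fasn, the highest of the fatty acid branch, a choice made after their values were seen. Each stretch is the 250 bases before the RefSeq gene start in assembly GRCm38.p6, read 5′ to 3′ on the gene's strand. Capitals mark CCAAT on either strand (ATTGG is its reverse) and, in Hmgcs1, the letters TCACCCCAC, which match TCACNCCAC, the only sterol regulatory pattern searched for. The stretches lie at chr13:119690101-119690350 on the plus strand, chr8:122443423-122443672 on the minus strand, chr13:8885356-8885605 on the plus strand, chr5:4104698-4104947 on the minus strand, chr5:28071162-28071411 on the plus strand and chr11:120824548-120824797 on the minus strand.
Hmgcs1: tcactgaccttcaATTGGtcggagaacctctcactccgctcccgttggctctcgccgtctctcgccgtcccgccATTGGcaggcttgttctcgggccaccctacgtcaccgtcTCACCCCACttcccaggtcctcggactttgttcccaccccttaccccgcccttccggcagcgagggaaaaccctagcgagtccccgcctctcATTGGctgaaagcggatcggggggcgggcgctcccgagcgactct
Mvd: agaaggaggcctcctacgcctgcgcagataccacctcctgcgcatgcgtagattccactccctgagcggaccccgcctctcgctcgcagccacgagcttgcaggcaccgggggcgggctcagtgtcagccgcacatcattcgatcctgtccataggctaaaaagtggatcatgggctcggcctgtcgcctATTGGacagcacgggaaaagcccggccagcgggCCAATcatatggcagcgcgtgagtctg
Idi1: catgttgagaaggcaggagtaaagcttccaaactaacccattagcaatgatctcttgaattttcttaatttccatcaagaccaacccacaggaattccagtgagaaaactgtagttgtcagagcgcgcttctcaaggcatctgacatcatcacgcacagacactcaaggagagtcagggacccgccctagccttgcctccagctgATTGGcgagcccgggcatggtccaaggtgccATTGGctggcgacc
Cyp51: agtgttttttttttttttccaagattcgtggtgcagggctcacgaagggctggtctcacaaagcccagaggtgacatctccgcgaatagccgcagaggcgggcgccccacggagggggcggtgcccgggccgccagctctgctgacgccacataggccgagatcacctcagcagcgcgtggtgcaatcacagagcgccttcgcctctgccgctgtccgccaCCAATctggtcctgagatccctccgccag
Insig1: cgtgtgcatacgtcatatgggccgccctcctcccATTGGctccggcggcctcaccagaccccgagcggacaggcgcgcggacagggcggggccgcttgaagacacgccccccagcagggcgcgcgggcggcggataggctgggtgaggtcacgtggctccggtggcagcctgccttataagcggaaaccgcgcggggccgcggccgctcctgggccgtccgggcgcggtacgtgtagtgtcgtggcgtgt
Fasn: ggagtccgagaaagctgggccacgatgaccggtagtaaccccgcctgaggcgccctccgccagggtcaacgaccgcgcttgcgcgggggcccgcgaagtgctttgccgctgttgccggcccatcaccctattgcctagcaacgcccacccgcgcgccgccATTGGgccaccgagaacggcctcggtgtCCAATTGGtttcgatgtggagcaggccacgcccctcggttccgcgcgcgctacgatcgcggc
All 6 stretches hold CCAAT at least once, and Hmgcs1 alone of the 6 holds TCACNCCAC, 137 bases before the start.

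Over all members, RefSeq promoters were matched for 27 of 34 genes, and Fdps, Fdft1, Sqle, Stard4, Scd1, Scd2 and Fads1 had none in the table. In the 300 bases from 250 before to 50 after the start, on both strands, a gene was counted if any of its listed promoters held the motif, and several genes had more than 1 listed. CCAAT occurred in 14 of 15 sterol genes (all but Acat2), 4 of 5 regulators and 4 of 7 fatty acid genes. Counted the same way, the share was 41.1% of 27025 genes and 43.5% of the 8804 genes that were also compared on the arrays. The GC box GGGCGG occurred in 14 of 15 sterol genes, 5 of 5 regulators and 4 of 7 fatty acid genes, against 70.0% of compared genes. The E-box CACGTG occurred in 3 of 15, 2 of 5 and 0 of 7, against 12.0%, and the ATF4-like pattern TGATGNAA in 1 of 15, 1 of 5 and 0 of 7, against 2.73%. TCACNCCAC, which was found in Hmgcs1 alone, occurred in 1.28% of compared genes. A match describes letters in these windows and says nothing of binding. The lack of a match does not show that a promoter has no sterol regulatory element, since other letters were not searched.

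The cell line was checked against markers before the members were read. All 10 fibroblast markers, among them the collagen genes Col1a1 and Col1a2, were well above background on every array, and none of 5 hepatocyte markers was on any. Of 10 leukocyte markers Cd68 alone was well above background, on all 3 arrays, and of 6 epithelial markers Krt19 alone was, on the 1 uM array. Of 12 adipocyte markers, the number detected well above background was 5 for untreated cells, 4 for 0.01 uM and 3 for 1 uM. Adipoq, Lep, Cfd, Plin1, Cidec, Retn and Cd36 were detected on no array. The probes well above background were 41.8%, 36.4% and 41.5% of the total on the untreated, 0.01 uM and 1 uM arrays, and replicate spots of a probe had a median SD of 0.06 log2 units on each.

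At 1 uM the members were mostly higher than in untreated cells. Of the 34, 5 lay 2-fold or more above untreated and 0 lay 2-fold or more below, where 5.67% of 12452 genes compared were higher and 4.86% lower. At 1.5-fold, 15 members were higher and 1 lower, against 13.9% and 13.4% of all genes. The median log2 difference was 0.49 over the members and -0.03 over all genes. Above 0 were 26 members and below it 8, beside 5836 and 6616 of the 12452 genes. In 19 members the difference exceeded 0 by more than 2 technical SEs and in 2, Srebf1 and Insig2, it lay below 0 by more than that. This count was not made over all genes, so it has no background share beside it. The members were chosen with earlier results of these data known, so their counts beside the shares of all genes describe and do not test.

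At 0.01 uM the same genes stayed close to the untreated array. No member was 2-fold apart in either direction, where 0.269% of 11916 genes compared were higher and 0.168% lower. None was 1.5-fold apart either, against 0.898% and 1.13% of all genes, so a count of 0 among 34 is near the background. The median log2 difference was 0.03 over the members and 0.04 over all genes. The largest was that of Acat2 at 0.48, the only one beyond 2 technical SEs.

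The 1 uM and 0.01 uM arrays differed much as 1 uM and untreated did, and both contrasts use the same 1 uM array. Past the 2-fold limit were 6 members higher at 1 uM and 0 lower, where 5.20% of 12060 genes compared were higher and 6.45% lower. Dhcr7 was added to the 5 named above. The 1 uM array gave the highest of the 3 levels for 26 members, the lowest for 7 and the middle one for 1. Over the 10575 genes well above background on all 3 arrays it gave the highest level for 37.5% and the lowest for 52.9%.

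**Figure D1:**
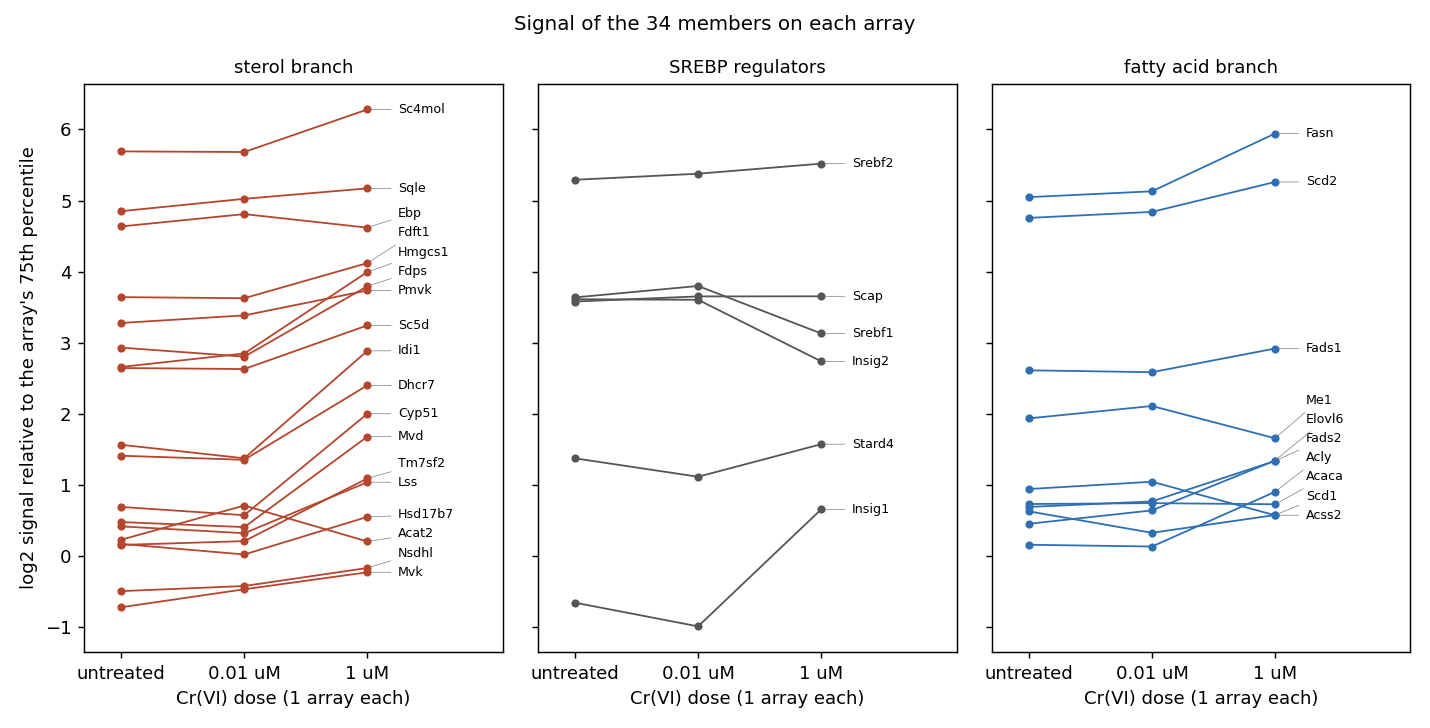
Log2 level of each member relative to the 75th percentile of its array, with 1 point per array (untreated, 0.01 uM and 1 uM) and members grouped by branch. The 1 uM point is the highest of the 3 for 16 of 18 sterol genes, 4 of 6 regulators and 6 of 10 fatty acid genes, and the 1 uM value of Sc4mol, at 6.28, is a saturated spot. Lines join the 3 arrays of a gene.

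The sterol branch held 4 of the 5 members that were at least 2-fold higher at 1 uM than in untreated cells. Its median log2 difference was 0.60 at 1 uM and -0.01 at 0.01 uM. At 1 uM 16 of its 18 genes were above 0, beside 5836 of 12452 genes compared. At 1.5-fold, 10 of the 18 were higher and 0 lower, against 13.9% and 13.4% of all genes.

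The first steps build isoprenoid units from acetyl-CoA. Hmgcs1, the synthase that makes HMG-CoA, had log2 levels of 2.66 in untreated cells, 2.85 at 0.01 uM and 3.99 at 1 uM, and was 2.53-fold higher at 1 uM than in untreated cells. The mean of all its probes gave a log2 difference of 0.97 in place of 1.34, short of 2-fold. That mean takes in a probe well above background on no array and another that was so at 1 uM only. Mvd, which decarboxylates mevalonate diphosphate, had levels of 0.47, 0.40 and 1.68 in the same order and was 2.30-fold higher at 1 uM. Idi1, the isomerase that makes dimethylallyl diphosphate, had levels of 1.56, 1.37 and 2.88 and was 2.50-fold higher. In all 3 genes the 1 uM array stood apart, and the other two arrays lay within 0.19 log2 units of each other.

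Fdps, which joins the units into farnesyl diphosphate, had levels of 2.93 in untreated cells, 2.80 at 0.01 uM and 3.79 at 1 uM, a 1.82-fold difference for 1 uM against untreated. The mean of all its probes gave a log2 difference of 1.40, but that mean takes in a probe, at 1.94, that was well above background on no array. The kinases of mevalonate lay lower in this order of differences. Mvk had levels of -0.73, -0.47 and -0.23, and its difference of 0.49 (1 uM minus untreated) compares with 0.25 for 0.01 uM minus untreated. Pmvk had levels of 3.28, 3.38 and 3.73, a difference of 0.46 at 1 uM.

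Acat2, the thiolase that joins acetyl-CoA units, was the exception among these early enzymes. Its levels were 0.22 in untreated cells, 0.71 at 0.01 uM and 0.20 at 1 uM, so the 0.01 uM array was the high one and the other two differed by 0.02. The 7 genes up to Fdps had a median difference of 0.86 at 1 uM and 0.11 at 0.01 uM, with 3 of them at least 2-fold higher at 1 uM.

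The steps from squalene on convert the linear chain to cholesterol. Their 11 genes had a median difference of 0.59 at 1 uM and -0.01 at 0.01 uM, with 1 gene at least 2-fold and 6 at least 1.5-fold higher at 1 uM. That gene was Cyp51, the demethylase that acts on lanosterol, with levels of 0.69 in untreated cells, 0.57 at 0.01 uM and 2.00 at 1 uM, 2.48-fold higher at 1 uM than in untreated cells. Dhcr7, the last reductase of one route to cholesterol, had levels of 1.41, 1.35 and 2.40 and was 1.99-fold higher, just short of the 2-fold limit. Tm7sf2, a sterol reductase that acts after Cyp51, had levels of 0.15, 0.20 and 1.09 and was 1.91-fold higher. In each of the 3 the 0.01 uM level was within 0.12 log2 units of the untreated one.

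Lss, the cyclase that makes lanosterol, and Sc5d, the desaturase before Dhcr7, were higher by 1.54-fold and 1.52-fold at 1 uM than in untreated cells. Lss levels were 0.41 in untreated cells, 0.32 at 0.01 uM and 1.03 at 1 uM, and those of Sc5d were 2.64, 2.63 and 3.24. The 3 Lss probes, all well above background on every array, gave 1 uM minus untreated differences of 0.62, 0.78 and 1.15. Sc4mol, the methyl sterol oxidase, had levels of 5.69, 5.68 and 6.28. Its 1 uM spot was saturated, so that difference is a lower bound, at least 1.51-fold higher at 1 uM than in untreated cells.

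In the probes read for them, the remaining genes of these late steps had smaller differences. Fdft1, which makes squalene, and Sqle, which epoxidises it, had 1 uM minus untreated differences of 0.48 and 0.32. Nsdhl and Hsd17b7, which take part in removing the methyl groups at one carbon of the sterol ring, had differences of 0.33 and 0.38. A further Hsd17b7 probe, well above background on every array, gave 1.02. Ebp, the sterol isomerase, had levels of 4.64 in untreated cells, 4.81 at 0.01 uM and 4.62 at 1 uM and did not stand apart on any array.

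Among the regulators, the Insig genes lay on opposite sides of the untreated level at 1 uM. Insig1, whose protein retains Scap and whose gene is itself an SREBP target, had levels of -0.66 in untreated cells, -1.00 at 0.01 uM and 0.65 at 1 uM. It was 2.49-fold higher at 1 uM than in untreated cells and 3.13-fold higher than at 0.01 uM, and its 0.01 uM minus untreated difference was -0.33. Insig2, which also retains Scap, had levels of 3.61, 3.60 and 2.74 and was 1.83-fold lower at 1 uM than in untreated cells, the 1 member lower by at least 1.5-fold. The 1 uM array was thus high for Insig1 and low for Insig2, while the untreated and 0.01 uM arrays differed by 0.01 for Insig2.

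The transcription factor genes had smaller differences. Srebf1 had levels of 3.64 in untreated cells, 3.80 at 0.01 uM and 3.13 at 1 uM, with a 1 uM minus untreated difference of -0.51 (1.42-fold lower). Srebf2 had levels of 5.29, 5.38 and 5.52, a difference of 0.23 that is close to 1 technical SE. Its 3 probes well above background on every array gave 0.23, 0.32 and 0.48. The mean of all its probes, -0.11, takes in a probe at -1.48 that was well above background on no array. Scap had levels of 3.58, 3.65 and 3.65. Stard4, which carries sterol between membranes, had levels of 1.37, 1.11 and 1.57 and a difference of 0.20. These 3 genes stayed within 1.5-fold on every pair of arrays, and the 6 regulators had a median difference of 0.14 at 1 uM, with 4 above 0 and 2 below.

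In the fatty acid branch the synthase, the elongase and the citrate lyase were higher at 1 uM than in untreated cells, and the supply enzymes acetyl-CoA synthetase and malic enzyme were not. Its 10 genes had a median log2 difference of 0.41 at 1 uM and 0.08 at 0.01 uM, and 6 were above 0 at 1 uM. At that dose 0 were at least 2-fold apart, near the 5.67% of all genes higher and 4.86% lower. At 1.5-fold, 4 were higher and 0 lower, against 13.9% and 13.4% of all genes. Fasn, the fatty acid synthase, had levels of 5.05 in untreated cells, 5.13 at 0.01 uM and 5.94 at 1 uM, 1.86-fold higher at 1 uM than in untreated cells. It passed 2-fold with quantile normalization (1.17), loess (1.07) and the mean of all probes (1.04), the last taking in a probe well above background at 1 uM only. Elovl6, which lengthens its palmitate product, had levels of 0.45, 0.64 and 1.34 and was 1.85-fold higher. Acly, which makes cytosolic acetyl-CoA from citrate, had levels of 0.15, 0.13 and 0.90 and was 1.68-fold higher. In these 3 genes the 1 uM array was the high one and the 0.01 uM array lay within 0.19 of the untreated one.

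The desaturases were divided. Fads2, which begins the synthesis of polyunsaturated fatty acids, had levels of 0.69 in untreated cells, 0.76 at 0.01 uM and 1.33 at 1 uM, 1.57-fold higher at 1 uM than in untreated cells. Fads1, the next desaturase of that route, had a difference of 0.31. Scd2, a stearoyl-CoA desaturase, had levels of 4.75, 4.84 and 5.26 and a difference of 0.51, whereas Scd1, its relative, had levels of 0.62, 0.32 and 0.57 and a difference of -0.05.

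The other enzymes that supply the pathway were level or lower. Acaca, the carboxylase that makes malonyl-CoA, had levels of 0.73 in untreated cells, 0.74 at 0.01 uM and 0.72 at 1 uM. Acss2, which activates acetate, had levels of 0.94, 1.04 and 0.57, and Me1, the malic enzyme that supplies NADPH, had 1.93, 2.11 and 1.65. Their 1 uM minus untreated differences were -0.37 and -0.28, short of 1.5-fold.

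**Figure D2:**
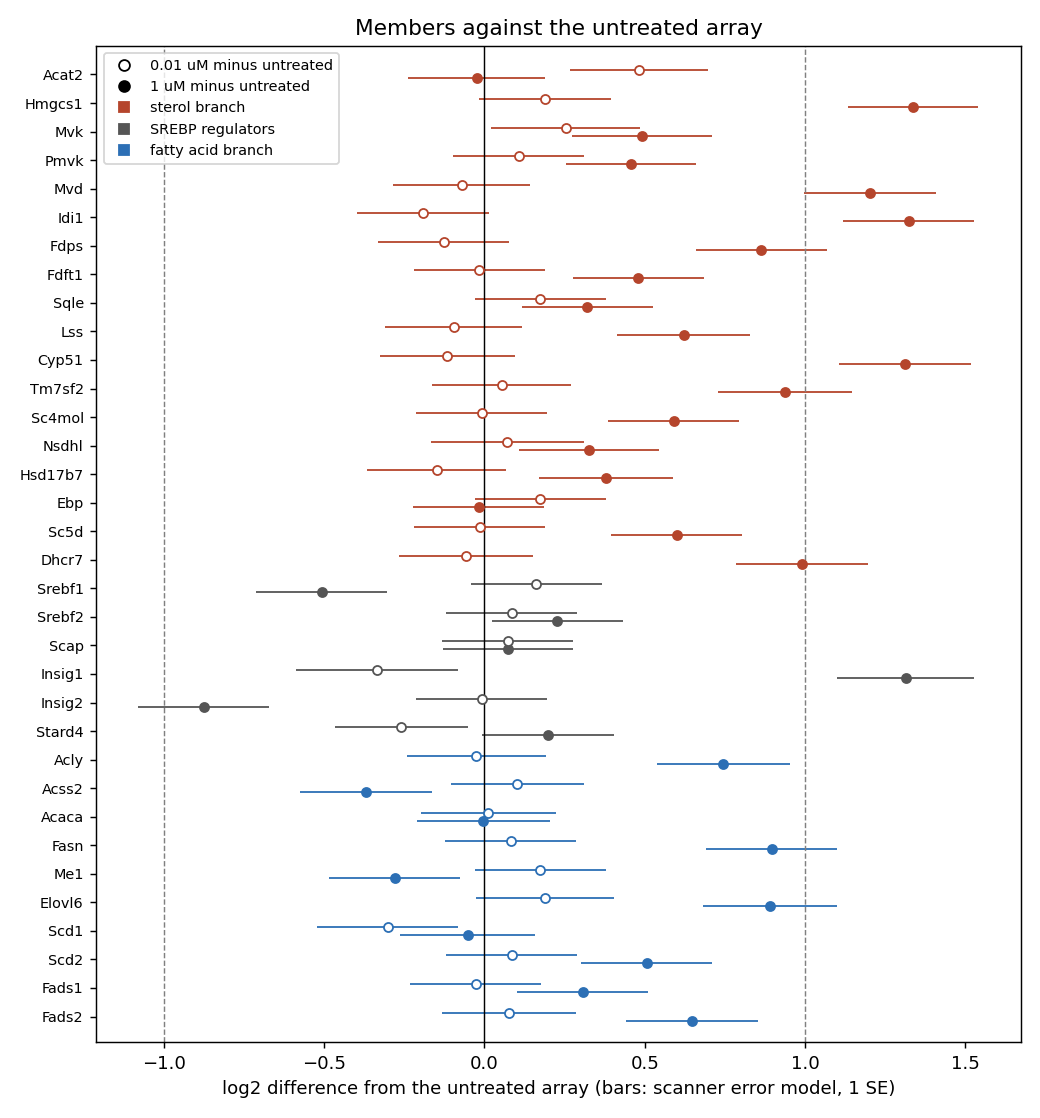
Log2 difference of each member from the untreated array, for 0.01 uM (open points) and 1 uM (filled points), with bars of 1 technical SE from the scanner error model and dashed lines at 2-fold. The 1 uM points lie past the upper dashed line for Hmgcs1, Mvd, Idi1, Cyp51 and Insig1, while no 0.01 uM point lies past 0.48.

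The sterol median exceeded the fatty acid median by 0.19 log2 units at 1 uM against untreated, and by 0.23 at 1 uM against 0.01 uM. At 0.01 uM against untreated the gap was -0.09. Without replicate arrays these gaps have no error, and at 1 uM the ranges of the branches overlapped, from -0.02 to 1.34 in the sterol branch and from -0.37 to 0.90 in the fatty acid branch. A constant used to scale an array cancels in this gap.

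**Figure D3:**
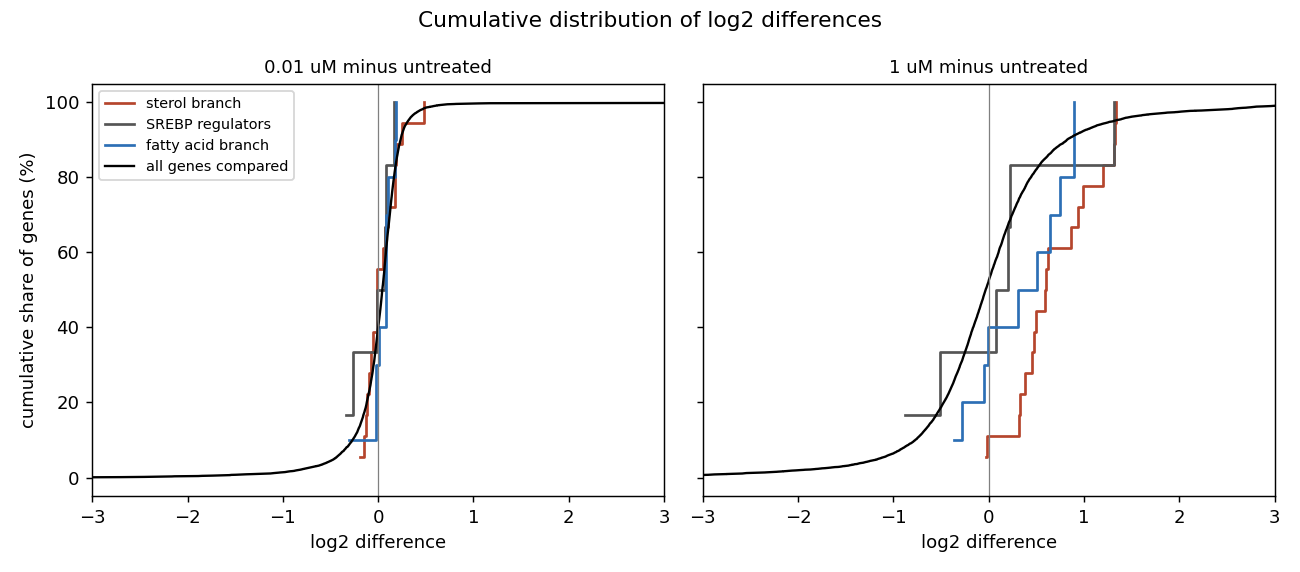
Cumulative share of genes (percent) by log2 difference from untreated, for 0.01 uM and 1 uM, with curves for the sterol branch, the regulators, the fatty acid branch and all genes compared. At 1 uM the sterol and fatty acid curves have medians of 0.60 and 0.41 beside -0.03 for all genes, and at 0.01 uM all curves centre between -0.01 and 0.08.

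Among the adipocyte markers 1 gene, Fabp4, made up most of the difference in summed signal between the arrays. The summed signal of the list, in units of each array's 75th-percentile signal, was 29.3 in untreated cells, 31.1 at 0.01 uM and 10.1 at 1 uM, and 5.74, 6.52 and 5.57 without Fabp4. Fabp4, the fatty acid binding protein of adipocytes, had log2 levels of 4.56, 4.62 and 2.17. Pparg, an adipocyte transcription factor, had levels of 1.40, 1.68 and 1.09, and Lpl, the lipoprotein lipase, had 1.14, 1.11 and 1.54. Cebpa, a further transcription factor of adipocytes, had levels of -1.23, -0.88 and -3.545. It was not well above background at 1 uM and was at least 2.98-fold lower there than in untreated cells. Of the 11 markers other than Fabp4, 6 were higher and 5 lower at 1 uM than in untreated cells, most of them not well above background. Saturation touched 4 of the 10 fibroblast markers, and the other 6 summed to 291 in untreated cells, 344 at 0.01 uM and 209 at 1 uM, with 4 of them lower and 2, Lum and Pdgfra, higher at 1 uM than in untreated cells. The part of these markers in the members' differences was not tested, and in bulk RNA fewer cells of a type and less RNA per cell cannot be told apart.

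Further probes of the members gave the same side. Of the 68 probes, 51 were well above background on every array, 11 on none and 6 on some. In all 13 members with several probes well above background on every array, those probes lay on 1 side of 0 at 1 uM against untreated, with a median gap of 0.25 between the lowest and the highest probe. The widest gaps were those of Hsd17b7, at 0.38 and 1.02, and Cyp51, between 0.96 and 1.59 over 3 probes. Insig1 probes gave 0.95 and 1.31, and Insig2 probes gave -1.19 and -0.87, so both genes kept their sides.

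**Figure D4:**
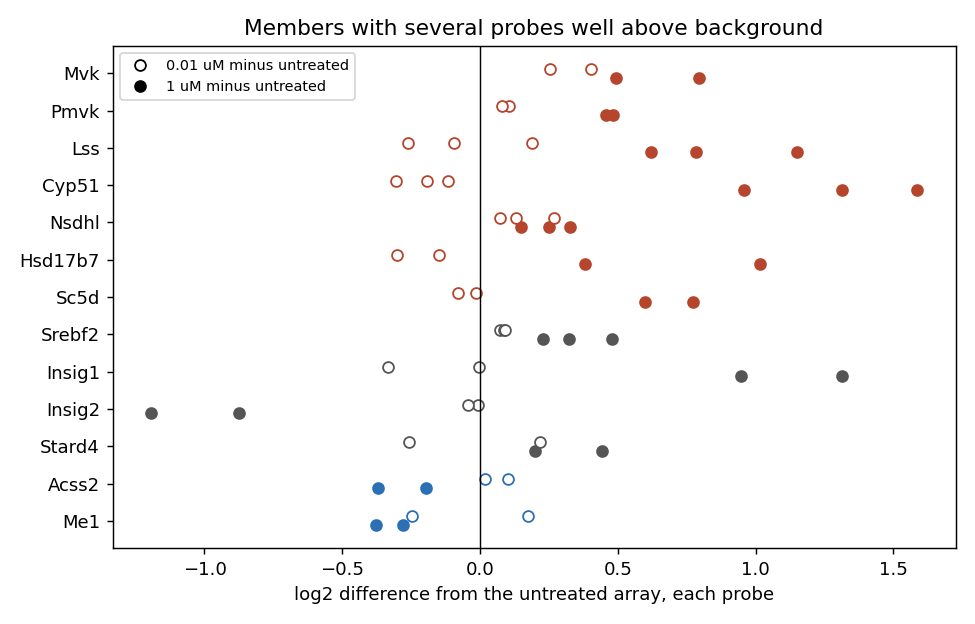
Log2 difference from untreated of every probe well above background on all arrays, for the 13 members with several such probes, at 0.01 uM (open points) and 1 uM (filled points), with sterol genes in red, regulators in grey and fatty acid genes in blue. At 1 uM the probes of each gene lie on 1 side of 0, and Hsd17b7 and Cyp51 have the widest spread.

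Some probes have limits of identity. Coordinates in the array files are of build mm9, and 13 of the 68 member probes span more than 100 genomic bases for a 60-base sequence, which means that they cross a splice junction. The probe read for Cyp51 lies at chr5:4083236-4083295, that for Mvd at chr8:124957750-124957809, that for Insig1 at chr5:28404246-28404305, that for Insig2 at chr1:123201085-123201144 and that for Fasn at chr11:120668460-120668519. The probe read for Hmgcs1 is placed on an unplaced stretch of chromosome 13, from base 114807 to 114866. Both Idi1 probes are placed on chromosome 2, the brighter at chr2:53553575-53553634, while RefSeq has Idi1 on chromosome 13, so Idi1 signal could include a near copy. Acat2 and Scd1 belong to gene families with close relatives, and whether their probes also read these was not tested.

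Of 35 other genes of fatty acid and glycerolipid synthesis, 27 were compared, with a median of 0.03 and 1 at least 2-fold apart in each direction at 1 uM. These counts are near the 5.67% of all genes higher and 4.86% lower. Pcyt2, of phosphatidylethanolamine synthesis, was 2.32-fold higher, and Lpin1, a phosphatidate phosphatase, was 2.29-fold lower. At 0.01 uM both lay within 0.15 of the untreated level.

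Genes of sterol export, uptake and the liver X receptor had 17 of 22 compared and a median of -0.01 at 1 uM. A count of 0 at least 2-fold apart is near the 5.67% of all genes higher and 4.86% lower. At 1.5-fold, 4 were higher and 1 lower, against 13.9% and 13.4% of all genes. These 5 are named after their values were seen. They were Osbp, an oxysterol-binding protein (1.98-fold higher), Abca1, a sterol efflux transporter (1.58-fold), Lpcat3, a phospholipid acyltransferase (1.57-fold), Arl4c, a small GTPase (1.56-fold), and Mylip, a ubiquitin ligase for lipoprotein receptors (1.60-fold lower). The brightest of the list were Npc2, a sterol carrier of lysosomes, and Lrp1, a lipoprotein receptor, both with a 1 uM minus untreated difference of -0.58. Genes of fatty acid oxidation had 19 of 23 compared, a median of -0.19 and 14 below 0. Of them 0 were at least 2-fold higher and 2 lower, where 5.67% of all genes were higher and 4.86% lower. The 2 lower genes were Pdk4, a kinase that restrains pyruvate oxidation, at 3.23-fold lower, and Angptl4, an inhibitor of lipoprotein lipase, at 2.91-fold lower at 1 uM than in untreated cells. No gene of these 3 lists was 2-fold apart at 0.01 uM, which is near the 0.269% of all genes higher and 0.168% lower.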

How the data were processed

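Total RNA of 3 C3H10T1/2 samples was hybridised to 3 one-colour Agilent arrays. Per the file headers, the authors obtained each spot's intensity with version 10.5.1.1 of Agilent Feature Extraction. The deposited log2 value table differs from log2 processed signal by 1 constant per array (untreated 9.45, 0.01 uM 9.01, 1 uM 9.56), within 0.01 for at least 99.8% of 41167 probes, so its scaling is the one used here. The medians of its columns were -4.23, -3.96 and -4.03.

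Control and outlier spots were left out, replicate spots were averaged as log2 values and the 75th percentile of each array was subtracted. The brightest probe stood for a gene, and genes not well above background on either array of a pair were not compared. A dim array, or a saturated bright spot, gives a lower bound. Probes were named through RefSeq accessions (25097), symbols (6333) or synonyms (1640) of GRCm38.p6, and 8104 kept the file's name. Differences are 1 uM or 0.01 uM minus untreated, or 1 uM minus 0.01 uM. All 34 members are named. Other lists give up to 4 genes per direction past 2-fold in 3 settings, or else the 2 brightest. Some genes that met this rule, and the list that holds them, are not reported here. The members and lists were chosen with earlier results of these data known. Alternatives used limma 3.58.1 in R 4.3.3 (normexp offset 50, quantile, loess), spike-ins and other thresholds. Counting at 2-fold was tested on simulated data with measurement noise only. These held no saturated spots, no difference in detection between arrays and no spread between cultures. Protein sequences were not used here. Python 3.11.15, numpy 2.4.6 and pandas 2.3.3 were used. The number of arrays, 1 per group, limits the precision.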

Additional observations from a re-analysis of the deposited data

How the results depend on the processing

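Scaling to 5 spike-in controls moved the members' medians most. It shifted the median of all genes to 0.64 (1 uM minus untreated), 0.35 (0.01 uM minus untreated) and 0.32 (1 uM minus 0.01 uM). In the same order the medians became 1.27, 0.29 and 0.98 for the sterol branch, 0.81, 0.33 and 0.45 for the regulators and 1.08, 0.38 and 0.75 for the fatty acid branch. At least 2-fold higher were then 21 members at 1 uM against untreated (24.8% of all genes) and 12 against 0.01 uM (11.3%), and Srebf1 (0.17), Acss2 (0.31) and Me1 (0.40) lay above 0. Insig2 alone stayed below 0 at 1 uM against untreated, at -0.20 in place of -0.87, which is close to 1 technical SE. Keeping dim probes moved the all-gene median to 0.15, 0.39 and -0.66 in that order and no value of the members. Members at least 2-fold higher at 1 uM against untreated were 7 with the 75th percentile of detected probes (Dhcr7 and Tm7sf2 added), against 6.50% of all genes. They were 7 with quantile or loess normalization (Dhcr7 and Fasn added), against 5.64% and 5.49%. Under the alternatives other than spike-ins, the median at 1 uM against untreated kept within 0.55 to 0.69 for the sterol branch and 0.34 to 0.54 for the fatty acid branch, and the gap between both within 0.14 to 0.35 under all of them. The median of the regulators lay between -0.02 and 0.23 without spike-ins, and for 1 uM against 0.01 uM it was 0.36 with loess and 0.37 with quantile normalization. The mean of a gene's probes left Hmgcs1 short of 2-fold at 1 uM against untreated (0.97), added Fdps (1.40) and Fasn (1.04) and turned Srebf2 to -0.11. It made 1 member, Insig2, at least 2-fold lower in both contrasts of 1 uM (5.28% of all genes against untreated and 6.50% against 0.01 uM). It raised the gap between branches at 1 uM against 0.01 uM to 0.52. This mean takes in dim probes, among them a probe of Fdps and a probe of Srebf2 that were well above background on no array. At 1.5-fold, 15 members were higher and 1 lower at 1 uM against untreated (13.9% and 13.4% of all genes), and 14 and 2 against 0.01 uM (12.4% and 17.3%). At 3-fold, 0 were higher against untreated (1.39% of all genes) and 1 against 0.01 uM (1.43%). The cause of the scaling shifts was not tested. No paired analysis was possible because each group has 1 array. With 1 array per group the spread between cultures is unknown, and differences near the technical SE of 0.20 could not be resolved.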
